A study of Mus musculus with 15 samples.

Results

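The potassium channel genes of the mouse carry symbols that start with Kcn, and they were followed here in injured cortex, in immune cells and in the remaining cortical cells. The tables listed 91 protein-coding genes with such a symbol in GENCODE, and 81 of them held at least 10 counts in at least 3 libraries of the flow-through or the CD45 table, out of 33223 genes in all. Of the 81 genes, 49 passed that minimum in both fractions, 30 in the flow-through only, and 2, Kcne3 and Kcnq1, in CD45 only. The 10 genes that did not pass were Kcna7, Kcna10, Kcne1, Kcng2, Kcng3, Kcnj1, Kcnk7, Kcnk15, Kcnmb2 and Kcnv2. The closest of these were Kcnmb2 and Kcne1, whose third-highest counts were 8 and 6, and the genes that passed most narrowly were Kcng1, Kcnj5 and Kcns3, with 10, 11 and 13.

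Every mouse carried EphA4 alleles flanked by loxP sites (EphA4 f/f) and received a moderate controlled cortical impact (CCI), a piston injury, to the right parietal cortex, which was taken 1 day later. The WT mice had the floxed alleles alone, and the KO mice (EphA4 f/f-VeCadCreERT2, labelled as an endothelial EphA4 KO) also carried a tamoxifen-activated Cre under the VE-cadherin promoter, which is active in endothelial cells. Dissociated cortex was passed over CD45 and CD31 microbeads, and RNA was sequenced from the CD45 cells and from the flow-through, which the labels describe as the other cells of the cortex. The groups were flow-through WT (n = 4 used), flow-through KO (n = 3), CD45 WT (n = 3) and CD45 KO (n = 4). Neither animals nor ages are named in the labels. A p-value here therefore weighs a difference against the spread of these libraries, part of which may be technical, and CD45 and flow-through libraries may come from the same mice.

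Potassium channels let potassium leave the cell and so set its resting potential and end its electrical signals. Neurons use many voltage-gated and calcium-activated channels to shape spikes, astrocytes use inward rectifiers and 2-pore leak channels to take up potassium released by neurons, and immune cells rely on a short list of channels that keep the membrane potential negative enough for calcium entry or carry the potassium efflux that precedes inflammasome activation. Auxiliary subunits, such as the Kv beta subunits, the KChIP proteins and the BK beta subunits, bind the pore-forming proteins and change their gating or their traffic to the membrane.

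Depth was 19204814 to 27270907 counts per flow-through library and 11574414 to 31337948 per CD45 library. Levels are given as CPM, counts scaled by the library total. Mitochondrially encoded genes took 2.58 to 4.47% of flow-through counts and 0.747 to 1.42% of CD45 counts. Ptprc, which encodes CD45, was at 0.660 to 1.22 CPM in the flow-through and 805 to 1043 CPM in the CD45 libraries, so the fractions followed their labels in the 14 libraries used. The library labelled flow-through WT replicate 5 stood in the CD45 tables and held Kcnk6, a channel gene of the CD45 fraction, at 59.3 CPM. It was left out of every comparison. Epha4 itself did not pass the test in either fraction: it was at 41.4 ± 2.01 CPM (SD, n = 4) in flow-through WT and 38.9 ± 3.14 (n = 3) in KO (edgeR adjusted p = 0.849), and at 2.80 ± 0.115 (n = 3) and 2.54 ± 0.967 CPM (n = 4) in CD45 (edgeR adjusted p = 0.989). All 9 endothelial markers were higher in the CD45 fraction than in the flow-through, with summed levels of 686 to 856 and 238 to 368 CPM.

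The 2 fractions were led by different channel genes. Levels of different genes were compared as CPM per kilobase of exon (CPM per kb), averaged over the 7 libraries of a fraction. In the flow-through 1 gene led: Kcnj10, the main inward rectifier of astrocytes, stood at 142 CPM per kb, which was 38.8% of the summed level of the 81 genes. It was followed by Kcna6 at 26.8 and Kcna1 at 21.6, both Kv1 pore subunits, by Kcnip3, a KChIP that binds Kv4 channels, at 19.4, and by Kcnk1, a 2-pore leak channel of astrocytes, at 18.2 CPM per kb. Next were Kcnk13 at 13.8, Kcnj16 at 9.31 and Kcnd3 at 6.64. The first 5 of these genes made up 62.2% of the flow-through sum. In the CD45 fraction the level was spread over 5 other genes: Kcnj2 at 18.4, Kcna3 at 16.0, Kcnk6 at 15.3, Kcnk13 at 12.1 and Kcnab2 at 10.4 CPM per kb, together 79.3% of the CD45 sum and 7.42% of the flow-through sum. Below them came Kcnn4 at 2.91, Kcnj10 at 2.05 and Kcnj8 at 0.85 CPM per kb. The summed level of all 81 genes was 336 to 409 CPM per kb in the flow-through and 75.0 to 103 in CD45, with no overlap between the fractions. By role, the 6 channels listed as immune made up 6.94% of the flow-through sum and 71.4% of the CD45 sum, the 4 glial channels 47.0% and 3.21%, and the 36 neuronal channels 26.4% and 7.14%.

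**Figure D1:**
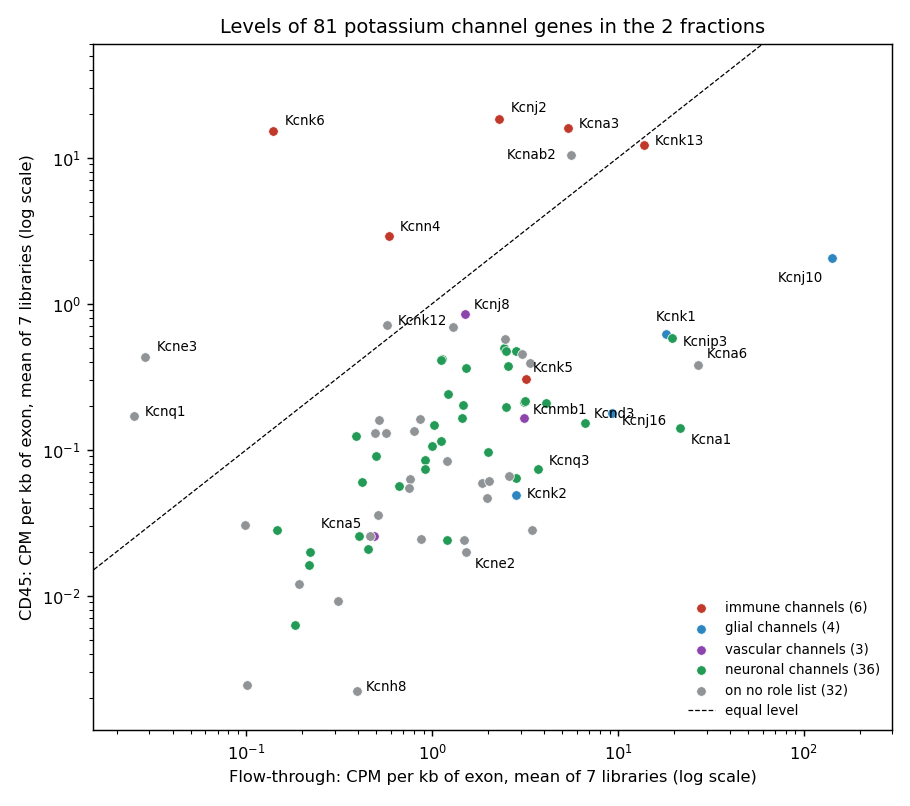
Mean level of each of the 81 potassium channel genes in the flow-through (x axis) and in the CD45 fraction (y axis), in CPM per kb of exon on log axes, coloured by role list; the dashed line marks equal levels. Kcnk6, Kcnj2, Kcna3, Kcnn4 and Kcnab2 lie above the line, and the glial and neuronal channels lie below it, with Kcnj10 farthest to the right at 142 CPM per kb.

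Tested gene by gene, 70 of the 80 channel genes that could be tested were lower in CD45 than in the flow-through and 9 were higher. Over all 18098 genes tested, 44.7% were lower and 41.4% higher, 86.1% in all, so a call in either direction was common. The median log2 fold change, CD45 over flow-through, was -3.07 for the channel genes and -0.05 for all genes. In such bulk samples fewer cells of a type and less RNA per cell cannot be told apart. The scaling matters here, because the all-gene median moved to -0.31 with upper-quartile scaling and to -0.58 with library totals alone. With both, 7 channel genes instead of 9 remained higher.

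Of the 6 immune channels, 5 were higher in CD45 and 1 was lower, with a median log2 fold change of 2.50. Kcnk6, a 2-pore channel that carries potassium efflux in macrophages, was at 0.406 to 0.773 CPM in the flow-through (median 0.550) and at 52.4 to 77.7 CPM in CD45 (median 63.0). The ranges lay far apart, and the log2 fold change was 7.26 (SE 0.13, adjusted p = 2.9e-17), the largest in size of the 80 with TMM. With library totals it was 6.73, and Kcna1, described below among the neuronal channels, was larger in size at -7.20. Kcnj2, a strong inward rectifier of macrophages and microglia, was at 8.20 to 17.5 CPM (median 12.2) against 72.7 to 123 (median 105), a log2 fold change of 3.53 (SE 0.16, adjusted p = 1.1e-11). Kcnn4, the calcium-activated channel of lymphocytes, macrophages and microglia, was at 1.76 to 4.27 CPM (median 3.11) against 9.83 to 19.3 (median 15.9), a log2 fold change of 2.93 (SE 0.16, adjusted p = 4.66e-11). Kcna3, the voltage-gated channel of T cells and activated microglia, was at 8.29 to 13.0 CPM (median 10.2) against 26.5 to 35.1 (median 30.2), a log2 fold change of 2.07 (SE 0.09, adjusted p = 9.41e-13). For each of these 4 genes every CD45 library lay above every flow-through library.

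Kcnk13 and Kcnk5 went otherwise. Kcnk13, the leak channel that sets the resting potential of microglia, had similar levels in both fractions, 37.7 to 47.3 CPM in the flow-through (median 42.8) and 33.6 to 44.3 in CD45 (median 36.6). Its ranges overlapped, and its direction depended on the scaling: the log2 fold change was 0.34 (SE 0.07, adjusted p = 0.000263) with TMM, 0.08 (adjusted p = 0.239) with upper-quartile scaling and -0.19 (adjusted p = 0.0247) with library totals. Kcnk5, a 2-pore channel described in T cells, was at 9.04 to 15.5 CPM in the flow-through and 0.436 to 1.75 in CD45, and was lower in CD45 by a log2 fold change of -2.87 (SE 0.25). The flow-through held little leukocyte RNA. Its summed level of the 7 microglial markers was 109 to 124 CPM, of which Sall1 alone gave a mean of 86.5, against 3265 to 4104 CPM in CD45. P2ry12, Cx3cr1, Csf1r and Siglech had flow-through means of 3.41, 1.02, 1.87 and 0.0139 CPM against 74.3, 699, 1497 and 24.6 in CD45. Ly6c2, Ly6g, Cd3g and Ms4a1 were at 0 in every flow-through library. Which flow-through cells held Kcnk13 and Kcnk5 was not tested.

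**Figure D2:**
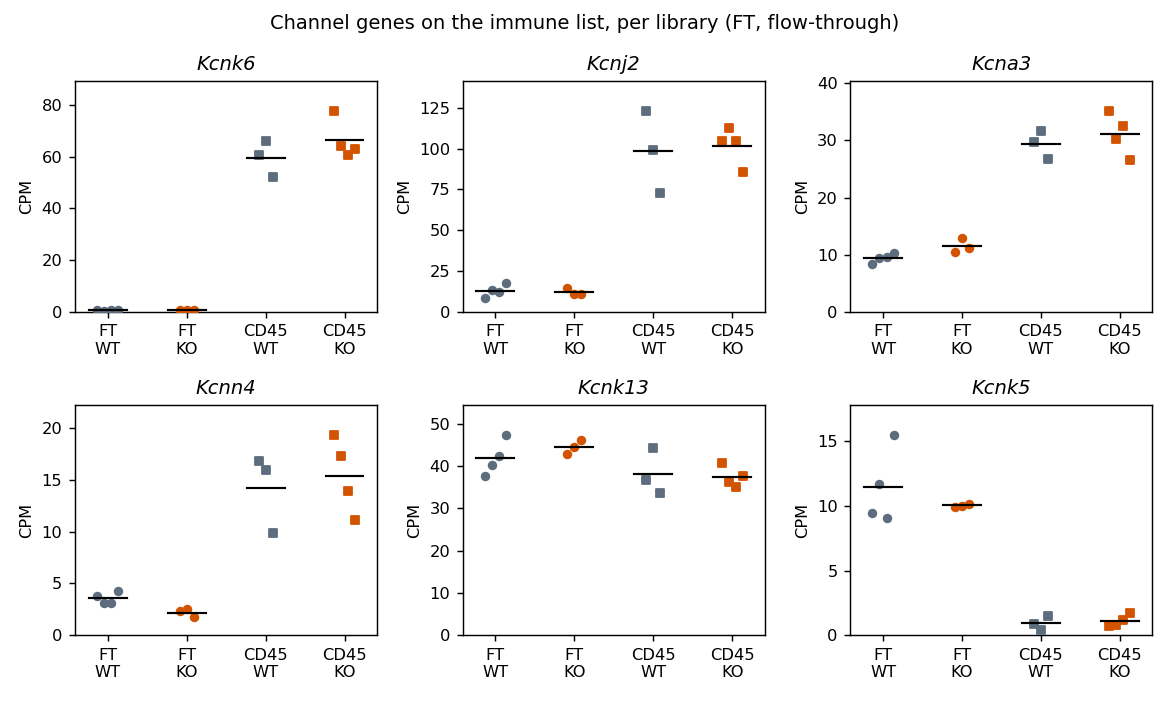
Level of the 6 immune channel genes (CPM, y axes) in each of the 14 libraries, by group; each point is 1 library and each line a group mean. Kcnk6, Kcnj2, Kcnn4 and Kcna3 lie higher in all CD45 libraries, Kcnk13 is at 33.6 to 47.3 CPM in every library, and Kcnk5 lies higher in all flow-through libraries.

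Outside the role lists, 4 more genes were higher in CD45. Kcnab2, a Kv beta subunit that binds Kv1 channels, was at 19.0 to 48.3 CPM in the flow-through (median 24.6) and at 40.4 to 66.6 CPM in CD45 (median 62.0), a log2 fold change of 1.43 (SE 0.10, adjusted p = 1.14e-09). Its ranges overlapped because 2 flow-through KO libraries reached 46.3 and 48.3 CPM. Kcne3, a KCNE subunit, was at 0 to 0.227 CPM against 0.309 to 1.30, and Kcnq1, a pore subunit it can join, was at 0.0476 to 0.187 against 0.511 to 1.07. Both rest on few reads, and neither pair of ranges overlapped. Kcnk12, a 2-pore relative of Kcnk13, had a log2 fold change of 0.87 (SE 0.35, adjusted p = 0.0309), which passed under 14 of 22 alternative settings. It did not pass without flow-through WT replicate 1, flow-through KO replicate 1 or 3, CD45 WT replicate 3 or CD45 KO replicate 1, where the adjusted p was 0.0525 to 0.0976.

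All 4 glial channels were lower in CD45, with a median log2 fold change of -5.22. Kcnj10 was at 689 to 901 CPM in the flow-through (median 751) and at 8.44 to 14.7 CPM in CD45 (median 10.1), a log2 fold change of -5.59 (SE 0.13, adjusted p = 6.85e-16). Kcnj16, which joins Kcnj10 in a shared channel, was at 34.9 to 41.4 against 0.432 to 1.36 CPM, a log2 fold change of -5.17 (SE 0.17). The ranges of the 2 partners were far apart between the fractions in the same direction. Kcnk1 was at 32.6 to 54.1 against 0.771 to 2.98 CPM (log2 fold change -4.53, SE 0.21). Kcnk2, a mechanosensitive and lipid-sensitive leak channel, was at 12.5 to 15.4 against 0.0412 to 0.485 CPM (log2 fold change -5.27, SE 0.27). Its value is uncertain, because 12.2% of its exon bases overlap another gene and the strand setting of the counting is not given in the sources used here.

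All 36 neuronal channels were lower in CD45 too, by log2 fold changes of -6.68 to -0.97 with a median of -3.05. Kcna1, an axonal Kv1 subunit, had the lowest log2 fold change of all the channel genes, -6.68 (SE 0.18, adjusted p = 1.01e-14), with 68.3 to 123 CPM in the flow-through (median 107) and 0.412 to 0.989 CPM in CD45 (median 0.673). The next lowest neuronal genes with at least 1 CPM were Kcnq3, a subunit of the M current, at -5.34, Kcnn2, a small-conductance calcium-activated channel, at -5.22, and Kcnd3, a Kv4 pore subunit, at -5.17. Kcnip3 stood at -4.66. At the other end were Kcnma1, the BK pore, at -0.97 and Kcnt1, a sodium-activated channel, at -1.07. Among genes on no role list, Kcne2 and Kcne1l, both KCNE subunits, stood at -6.57 and -6.27, Kcnh8, an ELK channel, at -6.18, Kcna6 at -5.64 and Kcnip1, a KChIP, at -5.41. Exons of Kcna6 overlap those of another gene over 39.6% of their length, so its value is uncertain.

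Vascular channels did not move as a block. Kcnmb1, the BK beta subunit of smooth muscle, was at 7.88 to 16.3 CPM in the flow-through and 0.257 to 1.16 in CD45 (log2 fold change -3.70, SE 0.25), and Kcna5, a Kv1 subunit of smooth muscle, was at 0.666 to 1.95 against 0 to 0.194 CPM (log2 fold change -3.95, SE 0.48). Kcnj8, the ATP-sensitive pore of pericytes, was at 1.35 to 6.75 CPM in the flow-through and 1.35 to 3.30 in CD45. Its ranges overlapped and it was the 1 tested channel gene that did not pass (log2 fold change -0.34, SE 0.31, adjusted p = 0.303), although it did with library totals (-0.87, adjusted p = 0.0145).

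A second list held 37 genes of channel partners and potassium transport without a Kcn symbol, of which 35 were tested, 6 were higher in CD45 and 26 lower. Over all 18098 genes tested 41.4% were higher and 44.7% lower. Among those higher were Slc12a7 (log2 fold change 1.74), a potassium-chloride cotransporter, and Atp1b3 (1.35), a subunit of the sodium-potassium pump. Lowest were Cntn2 (-6.03), which gathers Kv1 channels beside the node of Ranvier, the pump subunit Atp1b2 (-5.84), the water channel Aqp4 of astrocyte endfeet (-5.80) and Ank3 (-5.70), which anchors KCNQ channels at the axon initial segment.

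Between genotypes in the flow-through, 11 of the 77 channel genes tested were higher in KO, none was lower, and 9 of the 11 were neuronal. That is 14.3% of the channel genes, where 1.42% of the 16546 genes tested were called higher and 0.151% lower, 1.57% in all. The median log2 fold change, KO over WT, was 0.16 for the channel genes and -0.01 for all genes, and 60 of the 77 were above 0, against 48.3% of all genes. At an unadjusted p under 0.05 there were 26 of the 77, against 11.0% of all genes. In 17 of the 77 all KO libraries lay above all WT libraries (5.19% of all genes), and in 1, Kcnn4, all lay below (6.78% of all genes).

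Subunits that bind Kv1, Kv3 or Kv4 channels or form them gave 4 of the 11. Kcnab2 was at 21.7, 22.5, 19.0 and 24.6 CPM in WT and at 48.3, 46.3 and 36.9 CPM in KO. Every KO library lay well above every WT library, with means of 21.9 ± 2.31 (SD, n = 4) and 43.8 ± 6.10 (n = 3) and a log2 fold change of 1.02 (SE 0.11, adjusted p = 0.000551 in edgeR). Kcnab2 was also a leading gene of the CD45 fraction, where it was at 57.1 ± 14.5 CPM in WT and 59.0 ± 3.67 in KO. In the flow-through the summed microglial markers were 109 to 124 CPM in WT and 113 to 122 in KO. Most of that sum was Sall1, as given above, so it says little of the other microglial markers. The summed monocyte and macrophage markers were at 1.64 to 4.10 and 2.68 to 4.22. Of the 6 microglial markers tested there, 0 were called and 4 had a log2 fold change above 0, within a range of -0.11 to 1.25. In 2 of the 6 all KO libraries lay above all WT libraries (5.19% of all genes). The part of leukocyte RNA in the Kcnab2 difference was not tested.

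Kcnab3, another Kv beta subunit, was at 5.71, 6.13, 5.90 and 5.29 CPM in WT and 8.14, 8.54 and 9.39 in KO, a log2 fold change of 0.62 (SE 0.14, adjusted p = 0.0420). Kcnip2, a KChIP of Kv4 channels, was at 3.70, 2.30, 3.14 and 2.68 CPM in WT and 6.69, 5.10 and 6.05 in KO, a log2 fold change of 1.03 (SE 0.20, adjusted p = 0.0207). Kcnc4, a Kv3 subunit of fast-spiking membranes, was at 3.79, 3.29, 2.57 and 2.07 CPM in WT and 5.55, 5.57 and 5.72 in KO, a log2 fold change of 0.96 (SE 0.21, adjusted p = 0.0395). In none of the 3 did a WT library reach the lowest KO library.

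Among the inward rectifiers 2 genes rose. Kcnj4, a strong inward rectifier of forebrain neurons, had the largest change of all the called channel genes: it was at 2.81, 2.61, 2.52 and 2.93 CPM in WT and at 10.6, 7.03 and 8.32 CPM in KO. The WT libraries lay close together and the KO libraries stood far above them, with a log2 fold change of 1.69 (SE 0.18, adjusted p = 0.000518). Kcnj9, a G protein-gated subunit, was at 5.34, 3.74, 4.71 and 5.90 CPM in WT and 9.46, 7.50 and 8.91 in KO, a log2 fold change of 0.83 (SE 0.17, adjusted p = 0.0280). Its gene starts 11888 bases from that of Kcnj10 on chromosome 1, on the opposite strand, and Kcnj10 did not pass the test (0.16, SE 0.10, adjusted p = 0.622).

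Of the others, 4 were channels of spike repolarisation and spike frequency. Kcnmb4, the BK beta subunit of neurons, was at 7.21, 8.83, 7.33 and 8.38 CPM in WT and 14.3, 13.2 and 13.3 in KO, a log2 fold change of 0.80 (SE 0.12, adjusted p = 0.00383). Its value is uncertain, as 31.5% of its exon bases overlap another gene. Kcnh1, an EAG channel, was at 8.43, 6.63, 7.80 and 9.52 CPM in WT and 17.2, 12.7 and 11.95 in KO (log2 fold change 0.81, SE 0.16, adjusted p = 0.0226). Kcnh3, an ELK channel, was at 5.57, 6.90, 5.52 and 8.54 CPM in WT and 12.2, 10.9 and 9.42 in KO (0.74, SE 0.16, adjusted p = 0.0405). Kcnt1 was at 7.78, 9.19, 7.95 and 9.88 CPM in WT and 12.9, 11.5 and 15.7 in KO (0.65, SE 0.14, adjusted p = 0.0300). In these 3 the lowest KO library exceeded the highest WT library by a smaller margin than in Kcnmb4. Exons of Kcnab3, Kcnj9 and Kcnh3 also overlap another gene, over 5.13%, 4.01% and 0.017% of their length.

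**Figure D3:**
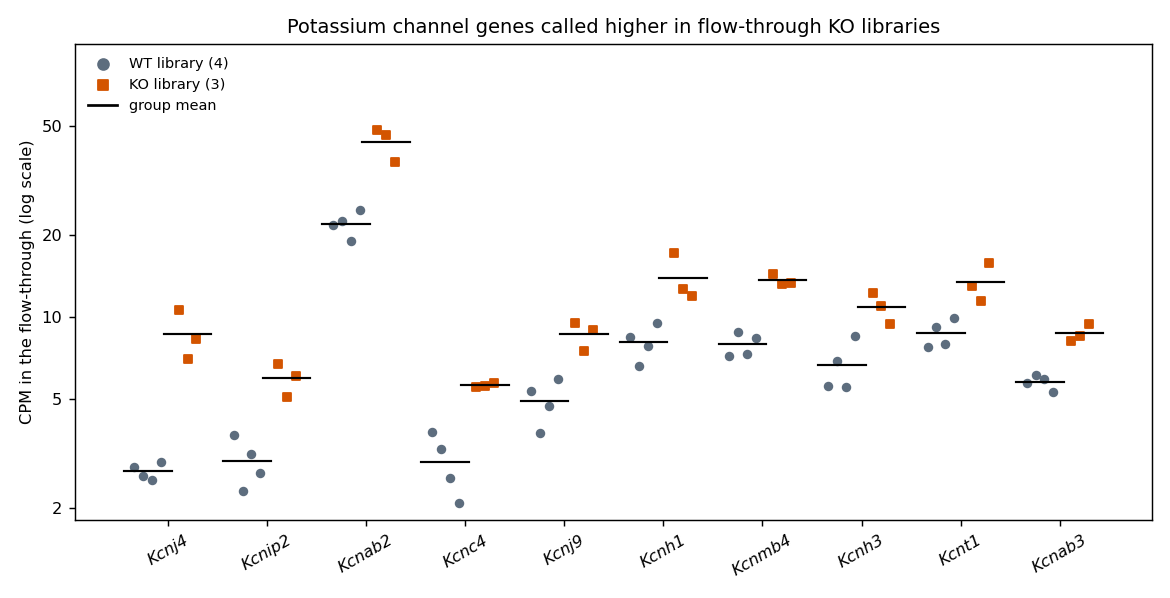
Level of 10 of the 11 channel genes that were higher in KO, in each flow-through library (CPM, log axis); points are libraries, 4 WT and 3 KO per gene. In every gene drawn the 3 KO points lie above the 4 WT points, most widely in Kcnj4, at 7.03 to 10.6 CPM against 2.52 to 2.93.

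Of the 36 neuronal channels 9 rose, 18 had an unadjusted p under 0.05, 31 had a log2 fold change above 0 and the median was 0.31. Among all 16546 genes tested, 1.42% were called higher, 11.0% had an unadjusted p under 0.05 and 48.3% were above 0. In 13 of the 36 all KO libraries lay above all WT libraries (5.19% of all genes). Kcnma1 came close, at 0.50 (adjusted p = 0.0781), with all KO libraries above all WT libraries. Some neuronal channels gave values near 0: Kcna1 had a log2 fold change of 0.05 (adjusted p = 0.947), Kcnq3 one of 0.05 (adjusted p = 0.916) and Kcnd3 one of -0.03 (adjusted p = 0.937). Kcnj11, the ATP-sensitive pore of neurons, which was on no role list, stood at 0.77 (adjusted p = 0.0988).

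No immune, glial or vascular channel passed in this comparison, in 6, 4 and 3 genes with median log2 fold changes of 0.04, 0.11 and -0.34. Kcnn4 came closest, at 3.75, 3.11, 3.14 and 4.27 CPM in WT and 2.32, 2.50 and 1.76 in KO. All KO libraries lay below all WT libraries, but the log2 fold change of -0.68 (SE 0.22) had an adjusted p of 0.209. Kcna3 was at 9.34 ± 0.792 CPM in WT and 11.5 ± 1.33 in KO (0.33, adjusted p = 0.349). Kcnmb1 had a log2 fold change of -0.39 with overlapping libraries (adjusted p = 0.418).

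Markers of excitatory neurons moved with these genes. Their summed level, over 10 genes, was 212 to 327 CPM in flow-through WT and 490 to 741 in KO, and 3 of the 10 rose: Nrgn (log2 fold change 1.22, adjusted p = 0.0418), Slc17a7 (1.19, adjusted p = 0.0343) and Cux2 (0.51). Camk2a had the largest log2 fold change of those 4, 1.81, without passing (adjusted p = 0.0832). Of the 10 excitatory markers 8 had a log2 fold change above 0, and the lowest was at -0.21. Markers of inhibitory neurons were at 171 to 206 CPM in WT and 157 to 194 in KO. Of the 6 tested, Gad2 fell (log2 fold change -0.42, adjusted p = 0.0494), and 4, Gad2, Pvalb, Sst and Reln, had an unadjusted p under 0.05, the last 3 with values above 0. Neuroblast markers, 5 genes, were at 468 to 600 CPM in WT and 310 to 443 in KO with no overlap. None of the 5 passed, but all had a log2 fold change below 0, from -0.53 to -0.27, and an unadjusted p under 0.05. Pan-neuronal markers were at 830 to 979 CPM in WT and 865 to 1159 in KO, of which Syn1 alone rose, by 0.58. In this list 8 of 10 genes had a log2 fold change above 0, and the lowest was at -0.23. None of the 8 astrocyte and 8 oligodendrocyte markers passed. Among all 16546 genes tested, 1.42% were called higher and 0.151% lower. An unadjusted p under 0.05 was found in 11.0% of all genes, and a log2 fold change above 0 in 48.3%. The summed level of the 36 neuronal channels was 83.8 to 93.4 CPM per kb in WT and 103 to 110 in KO, with no overlap. The part of these neuronal and neuroblast markers in the channel changes was not tested.

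**Figure D4:**
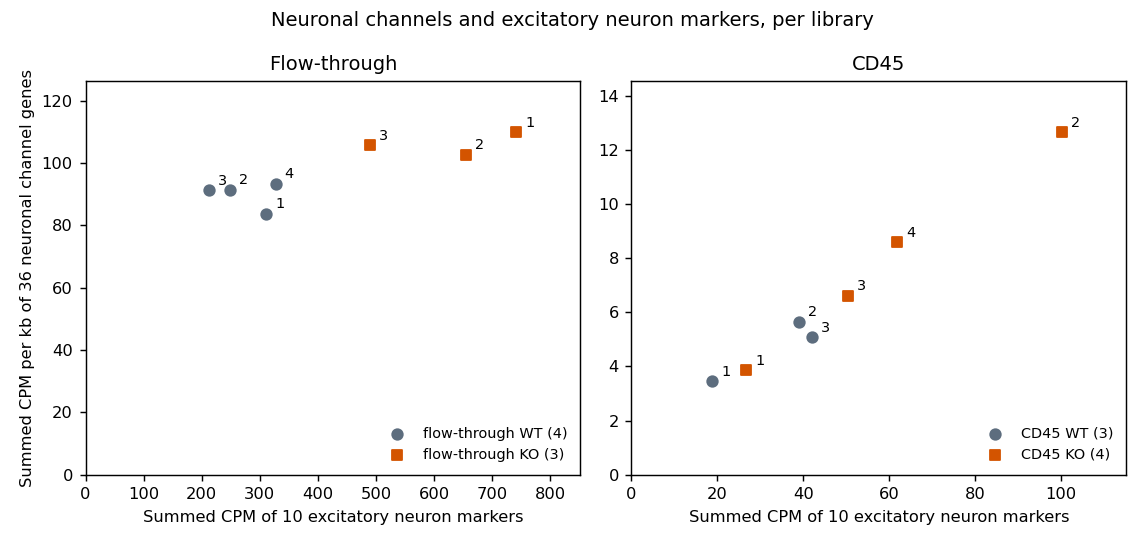
Summed level of 10 excitatory neuron markers (x axis, CPM) and of the 36 neuronal channel genes (y axis, CPM per kb) in each library, for the flow-through and for CD45. The flow-through KO libraries lie up and to the right of the WT libraries, and the CD45 libraries spread along both axes without separating by genotype.

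Base composition also moved with the calls: the 11 genes had a median exon GC content of 55.2%, against 49.6% in the 66 channel genes not called and 49.6% over all genes tested, and the 234 genes with an annotated exon called higher in the whole table had 56.9%. Flow-through KO replicate 3 stood apart in this respect, with genes of the highest GC content raised over those of the lowest by 0.37 on the log2 scale, where the other flow-through libraries were at -0.16 to 0.04. With a trend on GC and length removed, 7 channel genes passed, of which 6 were among the 11: Kcnab2, Kcnh1, Kcnip2, Kcnj4, Kcnmb4 and Kcnt1. Without that library 7 passed, and 4 did without flow-through KO replicate 1 or without flow-through WT replicate 2. The count was 6 without flow-through WT replicate 3, and 8 or 9 without each of the other 3 libraries. Kcnab2, Kcnj4 and Kcnmb4 were among the genes that passed in all 7 of these fits, and Kcnab3 passed in none. In a joint fit of all 14 libraries only Kcnab2 passed, and none did with flow-through WT replicate 5 entered as labelled.

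Promoters of 4 inward rectifiers are shown because these genes stand for the 3 patterns above: Kcnj4 and Kcnj9 rose in flow-through KO, Kcnj10 marked the flow-through and Kcnj2 the CD45 fraction. Each is the 250 bases before the gene's start in RefSeq on GRCm38.p6, 5′ to 3′ on the gene's strand: chr15:79505242-79505491 on the minus strand, chr1:172329323-172329572 on the minus strand, chr1:172340960-172341209 on the plus strand and chr11:111065914-111066163 on the plus strand. Capitals mark GGGCGG, the GC box, or TATAAA, the TATA box, on either strand.
Kcnj4: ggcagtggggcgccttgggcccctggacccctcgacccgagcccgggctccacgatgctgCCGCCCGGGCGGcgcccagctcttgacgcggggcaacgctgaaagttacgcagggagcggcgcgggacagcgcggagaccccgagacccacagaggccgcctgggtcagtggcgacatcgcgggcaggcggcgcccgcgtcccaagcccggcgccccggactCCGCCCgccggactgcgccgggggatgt
Kcnj9: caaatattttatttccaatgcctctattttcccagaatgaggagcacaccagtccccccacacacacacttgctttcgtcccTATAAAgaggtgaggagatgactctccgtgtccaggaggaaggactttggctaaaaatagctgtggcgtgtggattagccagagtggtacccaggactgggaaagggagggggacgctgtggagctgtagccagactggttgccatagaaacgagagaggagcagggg
Kcnj10: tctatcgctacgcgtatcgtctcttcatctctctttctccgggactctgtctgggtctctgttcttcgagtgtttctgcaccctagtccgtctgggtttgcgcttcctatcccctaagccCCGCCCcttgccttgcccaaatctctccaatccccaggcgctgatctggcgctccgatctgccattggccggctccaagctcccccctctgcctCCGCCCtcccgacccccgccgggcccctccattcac
Kcnj2: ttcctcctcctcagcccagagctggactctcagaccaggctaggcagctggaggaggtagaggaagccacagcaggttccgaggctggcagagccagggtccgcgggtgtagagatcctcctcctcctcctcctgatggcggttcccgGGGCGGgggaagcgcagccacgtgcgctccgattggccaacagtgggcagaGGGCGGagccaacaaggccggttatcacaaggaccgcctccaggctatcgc

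The Kcnj4 window holds 3 GC boxes and has a GC content of 77.2%, those of Kcnj10 and Kcnj2 hold 2 each at 62.0% and 65.6%, and that of Kcnj9 holds none and 1 TATA box at 52.0%. A window was found for 59 of the 81 channel genes. GGGCGG on either strand was in 38 of the 59 (64.4%) and in 35.4% of 27025 genes in the same table, and in 6 of the 7 risen genes with a window, Kcnab2, Kcnc4, Kcnh1, Kcnip2, Kcnj4 and Kcnmb4. TATAAA was in 3 of the 59 (5.08%), Kcnj9, Kcnj13 and Kcnj16, and in 14.3% of all genes. Of 3 other motifs searched on both strands, CACGTG was in 8.47% of the 59 and 6.86% of all, GAGGAAG in 13.6% and 12%, and TGACGTCA in none and 1.77%. Each share counts genes with at least 1 match, and matches of motifs whose ends share letters, such as CACGTG and GGGCGG, can overlap. A match describes these letters only.

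In CD45 cells no channel gene passed between genotypes. None of the 51 tested was called by edgeR, where 0% of the 15660 genes tested were, and DESeq2 called none either. At an unadjusted p under 0.05 edgeR had 6 of the 51, against 4.43% of all genes. DESeq2 had 11 of its 81, against 869 of 33223 genes in all. The edgeR count of 6 became 15 of 47 without CD45 KO replicate 1 (977 of 15308 genes in all). It was 1 of 47 without CD45 KO replicate 2 (482 of 15481) and 2 of 47 without CD45 KO replicate 3 (632 of 15482). Without CD45 WT replicate 1 it was 2 of 58 (558 of 15958). It was 4 of 48 without CD45 KO replicate 4 (807 of 15458). Without CD45 WT replicate 2 or 3 it was 4 of 56 (721 of 15907) or 4 of 55 (526 of 15808). The immune channels, which carry most of the level there, differed little. Kcnk6 was at 60.7, 66.0 and 52.4 CPM in WT and 77.7, 64.3, 60.8 and 63.0 in KO. Kcnj2 was at 123, 99.4 and 72.7 CPM in WT and 105, 113, 105 and 85.6 in KO. Kcna3 was at 29.8, 31.6 and 26.8 CPM in WT and 35.1, 30.2, 32.5 and 26.5 in KO. In all 3 the groups overlapped, and CD45 WT replicate 3 was the lowest WT library. That library also stood apart in base composition, with genes of high GC content raised over those of low GC content by 0.27 on the log2 scale, where the other CD45 libraries were at -0.13 to 0.11. Its part in these values was not tested. Kcnn4 was at 14.2 ± 3.78 CPM in WT and 15.4 ± 3.61 in KO, Kcnk13 at 38.2 ± 5.50 and 37.3 ± 2.41 and Kcnk5 at 0.936 ± 0.515 and 1.12 ± 0.473. The 6 immune channels had log2 fold changes of -0.06 to 0.20.

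Of the 36 neuronal channels, 26 were tested in CD45, most of them at low levels. Their log2 fold changes were 0.02 to 1.70, above 0 in 26 of 26 with a median of 0.81. Over all genes 54.5% were above 0 and the median was 0.02. The share covers only genes that passed the filter on low counts, which a gene can pass through the KO libraries alone. Among the untested, the KO mean was below the WT mean in Kcnk4 (0.214 CPM in WT and 0.0595 in KO) and Kcnt2 (0.121 and 0.105). It was above the WT mean in Kcnc2 (0.267 and 0.501), Kcnc4, Kcnh5, Kcnh7, Kcnip4, Kcnj6 and Kcns2. The 5 smallest p-values belonged to Kcnip2 (1.48, SE 0.53), Kcnj11 (2.01, SE 0.73), Kcnd3 (1.36, SE 0.50), Kcnq3 (1.10, SE 0.43) and Kcnv1, a modifier subunit (1.70, SE 0.72), each with an edgeR adjusted p of 0.974. Kcnip2 was at 0.329, 0.396 and 0.463 CPM in WT and 0.415, 1.84, 1.30 and 1.08 in KO, so KO replicate 1 lay among the WT libraries and the other 3 above them. All KO libraries lay above all WT libraries in 3 of the 51 genes, Kcnq3, Kcnk1 and Kcnab3 (2.92% of all genes). Summed neuronal channels were at 3.45, 5.66 and 5.08 CPM per kb in WT and 3.85, 12.6, 6.61 and 8.60 in KO. The excitatory marker sum of the same libraries was 18.8, 38.98 and 42.1 CPM in WT and 26.7, 100.1, 50.3 and 61.8 in KO, so the same 3 KO libraries led in both. The part of those markers in the channel values was not tested.

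**Figure D5:**
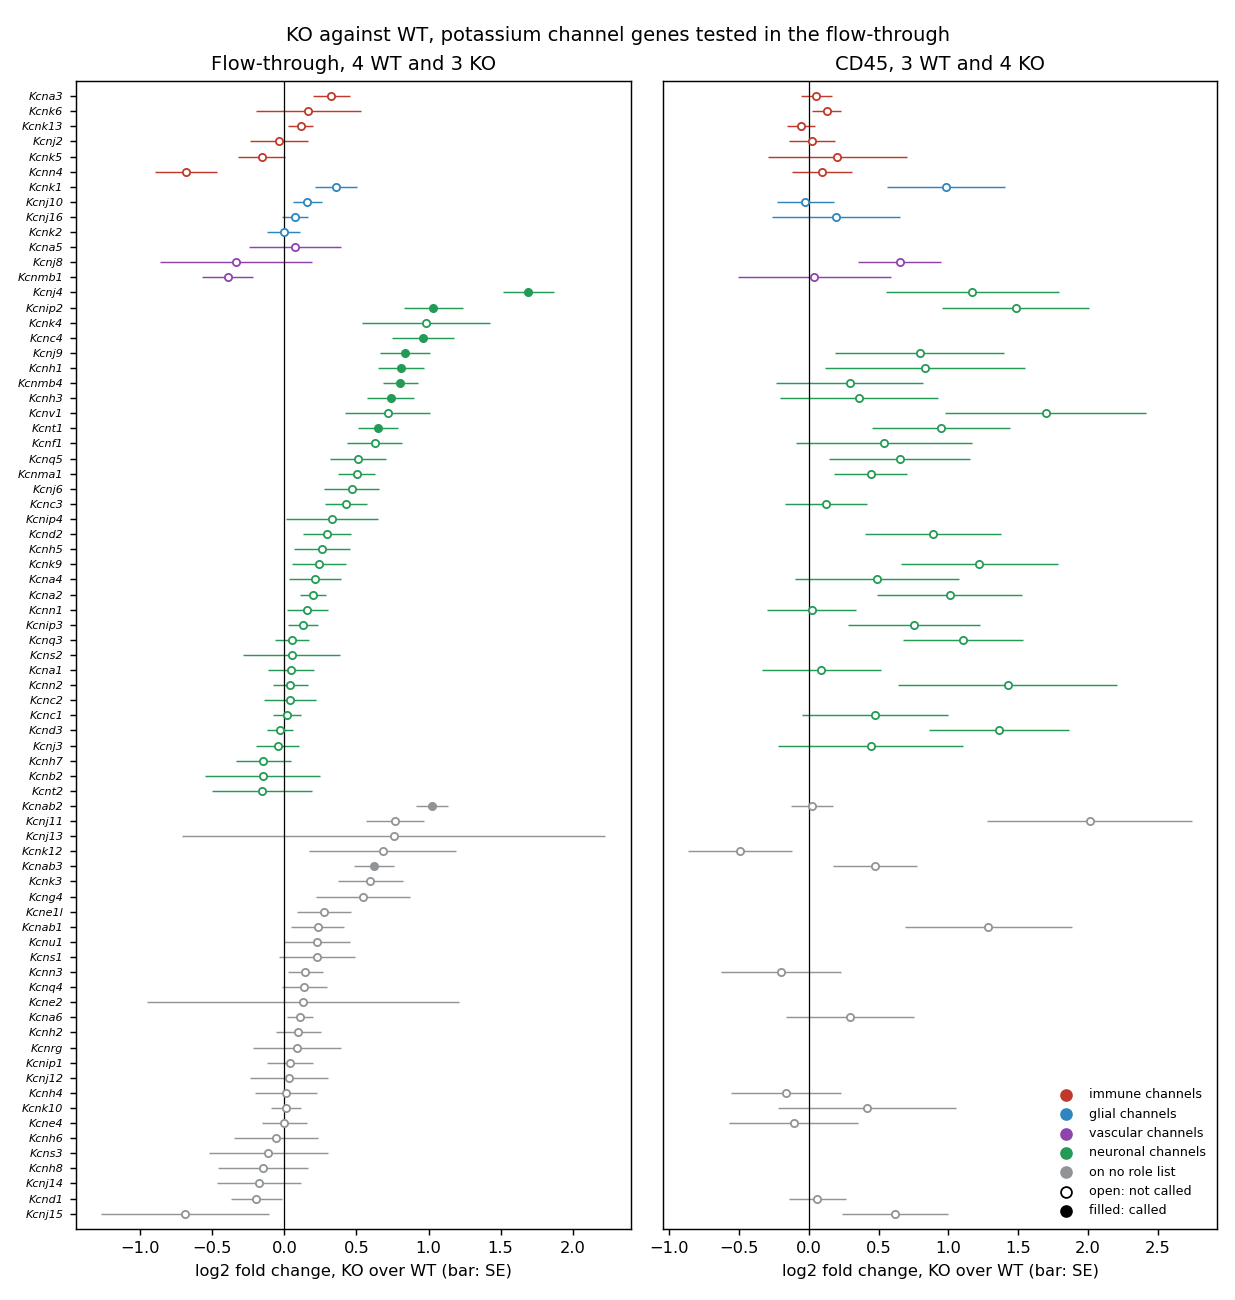
Log2 fold change of KO over WT with its SE for 75 of the 77 channel genes tested in the flow-through (left) and for those of them tested in CD45 (right), in the same gene order; filled points passed at an adjusted p under 0.05. The 10 filled points are all in the flow-through, led by Kcnj4 at 1.69, and in CD45 the errors are wider and no point is filled.

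Whether the genotype difference itself differed between the fractions was tested as an interaction. No channel gene of 80 was called by edgeR (0% of 18098 genes), and 6 had an unadjusted p under 0.05 (7.21% of all genes). Kcnab2 had the smallest p: its genotype difference was larger in the flow-through than in CD45 by 1.02 on the log2 scale (SE 0.20, adjusted p = 0.178), and it passed with DESeq2 (adjusted p = 0.00185), with no filter on low counts (0.0114) and without CD45 WT replicate 3 (0.0168). Kcnk4, a mechanosensitive leak channel with few reads, had a difference of 3.03 (SE 0.99, adjusted p = 0.582) and Kcnd3 one of -1.35 (SE 0.46, adjusted p = 0.604). The genes that rose in the flow-through were thus not shown to differ between the fractions in their genotype difference.

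Of the 35 tested partner and transport genes, 3 were higher and 0 lower in flow-through KO, where 1.42% of all genes were higher and 0.151% lower. Slc12a5, the neuronal potassium-chloride cotransporter, was at 13.4, 10.2, 10.6 and 14.5 CPM in WT and 27.3, 21.2 and 24.9 in KO, a log2 fold change of 1.03 (SE 0.14, adjusted p = 0.00166). Dlg4, the postsynaptic scaffold that binds Kv1 and inward rectifier channels, was at 97.5, 96.0, 93.5 and 100.4 CPM in WT and 133, 134 and 114 in KO (0.42, SE 0.09, adjusted p = 0.0267). In both genes all KO libraries lay above all WT libraries. In CD45 none of 32 passed in edgeR, with 2 at an unadjusted p under 0.05 (4.43% of all genes).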

How the data were processed

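Trim Galore, FastQC, STAR 2.7.9a and GRCm38 are named in the submitters' processing notes. What counted reads per gene, with which strand setting and annotation, is not given in the sources used here. The authors deposited raw gene counts per fraction, used here for every test. Their companion tables hold the same counts divided by DESeq2 size factors, a normalized signal that the authors deposited and that entered no test. Of 33223 genes, 33130 were matched to GENCODE M21.

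Each comparison was fitted over all genes with edgeR 4.0.16 in R 4.3.3 (quasi-likelihood test, robust, two-sided, TMM, filterByExpr with at least 10 counts and 15 in total), with Benjamini-Hochberg adjustment and calls at an adjusted p under 0.05. Genotype comparisons were fitted within a fraction; fraction and interaction used 14 libraries and 1 mean per group. CPM are scaled by library totals, without TMM. Alternatives were DESeq2 1.42.0, other scalings, no filter, no robust estimation, a joint fit, a GC and length trend removed, and each library left out. On simulated counts with 100 genes changed by a log2 of 1, the test recovered 93% in the flow-through, 74% in CD45, 93% between fractions and 53% for the interaction. The changed genes were drawn from those with a mean log2 CPM above 1, so these shares do not cover genes at lower levels. Before the change each simulated gene had the same mean level in all libraries of a comparison. The interaction share therefore does not cover genes that differ between the fractions, as most did here. Named genes are those called between genotypes, filled to 5 by p in CD45, those with the 12 largest and 12 smallest called fraction differences at 1 CPM or more, the 8 highest per kb in each fraction, the 3 smallest interaction p, and all immune, glial and vascular channels; genes named beyond these were chosen after their values were seen. Members and lists were chosen with earlier results of these data known. Replicate numbers follow accession order and pair nothing. RefSeq promoters are from a GRCm38.p6 table. Some genes counted here, 1 of the 11 called in the flow-through among them, are not reported by name or drawn by name.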

Additional observations from a re-analysis of the deposited data

Results flagged for a closer look

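Kcna6 stood at 5.14 CPM in CD45 KO replicate 2, where the other 3 CD45 KO libraries were at 1.34 to 1.96 CPM. Its gap to the next library was 0.838 of the whole range, above the limit for a group of 4. This was 1 such value in 58 groups of 4 libraries looked at, and chance gives about 1 in 20. The same library held the highest excitatory marker sum of the CD45 libraries, 100.1 CPM.

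The library labelled flow-through WT replicate 5, which no comparison used, held Kcnk6 at 59.3 CPM. The 4 flow-through WT libraries used were at 0.406 to 0.773 CPM, and the CD45 libraries at 52.4 to 77.7.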

How the results depend on the processing

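The count of channel genes called, all of them higher, in flow-through KO was 11. It was 0 with flow-through WT replicate 5 entered as labelled, 1 in the joint fit, 7 with the GC and length trend removed, and 4 to 9 when 1 library was left out. The interaction count of 0 became 1 with no filter, 1 with DESeq2, and 0 to 1 when 1 library was left out. Kcnk13 between fractions reversed to -0.19 with library totals alone, a setting added after the data were seen. The cause of these shifts was not tested, other than that a fit without a library holds fewer samples. Of the counts under alternatives, 208 stayed within 1.5 times the reported count and 20 did not. Of the named genes' values, 763 kept their direction and side of the threshold, 75 lost the call and 4 gained it. Over all genes the flow-through count of 260 was 0 with that library as labelled, 30 in the joint fit, 188 with the trend removed, 416 with DESeq2, 629 with no filter and 134 to 287 with 1 library left out. No paired analysis was possible because the labels carry no replicate numbers. Low counts limit the neuronal channels in CD45, most of which were near or under 1 CPM.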

Other observations

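Some channel genes varied between single libraries more than between groups. Kcne2 and Kcnj13, which are known from the choroid plexus, were at 0.703, 6.17, 3.05 and 0.488 CPM and at 0.328, 5.50, 3.09 and 1.38 CPM in the 4 flow-through WT libraries, and at 6.01, 1.35 and 0.990 and at 12.01, 0.156 and 0.587 CPM in the 3 KO libraries. The summed markers of ependymal and choroid plexus cells in the same libraries were 299, 1055, 762 and 415 CPM in WT and 2027, 315 and 282 in KO. In both genes the 3 libraries with the most marker RNA, WT replicates 2 and 3 and KO replicate 1, also held the highest levels. Exons of Kcnj13 overlap another gene over 49.1% of their length.

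Ratios of partner subunits in the flow-through are given as a description for 11 pairs, each value a log2 ratio of counts plus 0.5 within a library. In 9 of the 11 pairs the first gene is one that rose in KO, so the choice of pairs fixed their direction. In the other 2, Kcnip3 over Kcnd2 and Kcnj16 over Kcnj10, the genotypes overlapped. Kcnip2 over Kcnd2 was at -1.67 ± 0.29 (SD, n = 4) in WT and -0.92 ± 0.09 (n = 3) in KO, and Kcnj9 over Kcnj3 at -0.13 ± 0.27 and 0.76 ± 0.18. Kcnab2 over Kcna1 was at -2.19 ± 0.43 and -1.25 ± 0.18, and Kcnj4 over Kcnj2 at -2.17 ± 0.45 and -0.50 ± 0.14. In these 4 pairs the genotypes did not overlap. Kcnmb4 over Kcnma1 overlapped, and Kcnj16 over Kcnj10 was at -4.35 ± 0.12 and -4.44 ± 0.02. In CD45 every pair overlapped.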
